A study of Caenorhabditis elegans with 3 samples.

Results

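The breakdown of propionate in Caenorhabditis elegans was followed through the transcripts of 10 enzyme genes, 6 of the shunt that works without vitamin B12 (acdh-1, acdh-2, ech-6, hach-1, hphd-1 and alh-8) and 4 of the canonical route that needs the vitamin (pcca-1, pccb-1, mce-1 and mmcm-1). They were taken as all probe sets annotated with 1 of these symbols, which gave 15 of 22625 probe sets, 8 for the shunt and 7 for the canonical route, and 10 of the 17118 genes measured. All are protein-coding genes of the RefSeq table of assembly WBcel235, and no member lies directly beside another in it. The pathway is a textbook one, but its genes were chosen by their levels on all 3 of these arrays, so every count over its members describes these arrays and tests nothing.

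Propionate arises from the breakdown of valine, isoleucine, methionine and odd-chain fatty acids, and its CoA ester is toxic when it builds up. In the canonical route propionyl-CoA is carboxylated, epimerised and rearranged by a mutase with vitamin B12 as cofactor to succinyl-CoA, which enters the citric acid cycle. When the vitamin is scarce, C. elegans oxidises propionyl-CoA through the shunt instead, by way of acrylyl-CoA, 3-hydroxypropionate and malonic semialdehyde, to acetyl-CoA. Transcription of acdh-1 in the intestine and hypodermis is widely used as a readout of low vitamin B12 or high propionate in the diet.

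The study compared 3 groups of whole larvae of the wild-type strain N2 (Bristol), each labelled as the first larval stage (L1), taken from a synchronous culture made by bleaching, whose parents were kept at 20 °C with Escherichia coli OP50 as food. Control larvae received no treatment, bio-electrosprayed larvae were jetted from a needle held at high voltage, and heat-shocked larvae, the positive control, were held at 30 °C for 24 h. Each group was 1 Affymetrix array. No difference below therefore has a replicate check, no p-value is given, the number of arrays limits the precision, and batch and treatment cannot be told apart. The ages of the groups at collection are not given beyond the stage, so any difference in age between them cannot be told apart from the treatment either.

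The arrays were alike in overall level, with medians over all probe sets of 3.15 (control), 3.16 (bio-electrospray) and 3.19 (heat shock) on the log2 scale on which all levels are given here. Genes were represented by their brightest probe set and compared where it was brighter than the array's median on either array, a filter that all 10 members passed in each comparison. For genes with a second probe set above this filter, both probe sets' differences from control lay a median of 0.09 apart for bio-electrospray (1947 genes, 95th percentile 0.34) and 0.24 apart for heat shock (2024 genes, 95th percentile 0.84), which gives the spread between probe sets but not between cultures. Spike-in probe sets, which read RNA added during the assay, had a median difference from control of −0.19 for bio-electrospray and −0.53 for heat shock (18 probe sets). Centring on them would add 0.19 and 0.53 to every difference, the median of all genes included. Markers of the intestine (8 of 8), hypodermis (6 of 6), muscle (5 of 5) and neurons (6 of 6) were above the array median on all 3 arrays. Of 5 adult yolk genes measured, 1 was above it on the control array. Against the stage label, 5 of 6 genes of sperm, which larvae of this stage do not make, were above it on the control and bio-electrospray arrays and 3 of 6 on the heat shock array. The summed level of the sperm markers was 0.627 times the control level after spraying and 0.18 times after heat, and its part in the results was not tested.

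After bio-electrospray all 6 shunt genes stood higher than in control larvae, by 0.30 to 3.15 on the log2 scale with a median of 0.98, while the 4 canonical genes differed from it by −0.10 to 0.05 (0.09 to 0.24 when centred on the spike-in probe sets, which raises the shunt genes alike). Of the shunt genes, acdh-2, acdh-1 and hphd-1 were at least 2-fold higher, and no canonical gene was 2-fold apart. Over all 8613 genes compared, 0.255% were higher and 0.0464% lower by 2-fold or more, 0.302% together, the median difference was 0 and the middle 95% lay between −0.38 and 0.33. A difference above 0 was found for 34.2% of genes, one below 0 for 37.1%, and 28.7% had exactly equal values. The members were picked with this comparison in view, so nothing is read from these shares.

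The first step of the shunt, the oxidation of propionyl-CoA to acrylyl-CoA, is carried out by the acyl-CoA dehydrogenase encoded by acdh-1, and acdh-2 encodes a closely related enzyme. The level of acdh-1 was 9.20 in control larvae, 10.83 in sprayed larvae and 10.31 in heat-shocked larvae. It was thus highest after spraying, 3.11-fold above control, and also 2.16-fold above control after heat. The level of acdh-2 was 3.24 in control larvae, 6.38 in sprayed larvae and 3.17 in heat-shocked larvae. On the control and heat shock arrays acdh-2 lay at the array median, in the 51.7th and 49.7th percentile of probe sets, and only after spraying was it clearly brighter, in the 87th percentile. The difference of 3.15 was the highest of all 8613 genes, ahead of the 1.64 of acdh-1 in rank 6. A second acdh-2 probe set read 2.90, 5.39 and 2.87 in the same order of arrays, a difference of 2.49 after spraying. Since a fold against so dim a level depends on the background model, 16 was added to the linear levels as a check, and acdh-2 was then 3.91-fold higher and its second probe set 2.47-fold higher, against 3.05-fold for acdh-1.

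The middle steps hydrate acrylyl-CoA, through the enoyl-CoA hydratase encoded by ech-6, and release 3-hydroxypropionate from its CoA ester, through the hydrolase encoded by hach-1. The level of ech-6 was 9.77 in control larvae, 10.40 in sprayed larvae and 10.05 in heat-shocked larvae. It was 1.55-fold above control after spraying, in rank 60 of all genes. The level of hach-1 was 6.70 in control larvae, 7.63 in sprayed larvae and 6.16 in heat-shocked larvae. After spraying hach-1 was 1.91-fold above control, just short of 2-fold, and after heat it differed from control by −0.54.

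The last steps oxidise 3-hydroxypropionate to malonic semialdehyde, by the dehydrogenase encoded by hphd-1, and this to acetyl-CoA, by the semialdehyde dehydrogenase encoded by alh-8. The level of hphd-1 was 7.93 in control larvae, 8.94 in sprayed larvae and 7.12 in heat-shocked larvae. Its second probe set read 5.02, 5.78 and 4.19, so that both were highest after spraying and lowest after heat. The difference after spraying was 1.02 by the brighter probe set and 0.76 by the other, and their mean of 0.89 was below 2-fold. The names of both mark them as possibly shared between transcripts, as those of the ech-6 and alh-8 probe sets do. The level of alh-8 was 9.17 in control larvae, 9.47 in sprayed larvae and 9.98 in heat-shocked larvae. It was the only shunt gene that was highest after heat, and at 0.30 it had the smallest difference of the 6 after spraying.

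**Figure D1:**
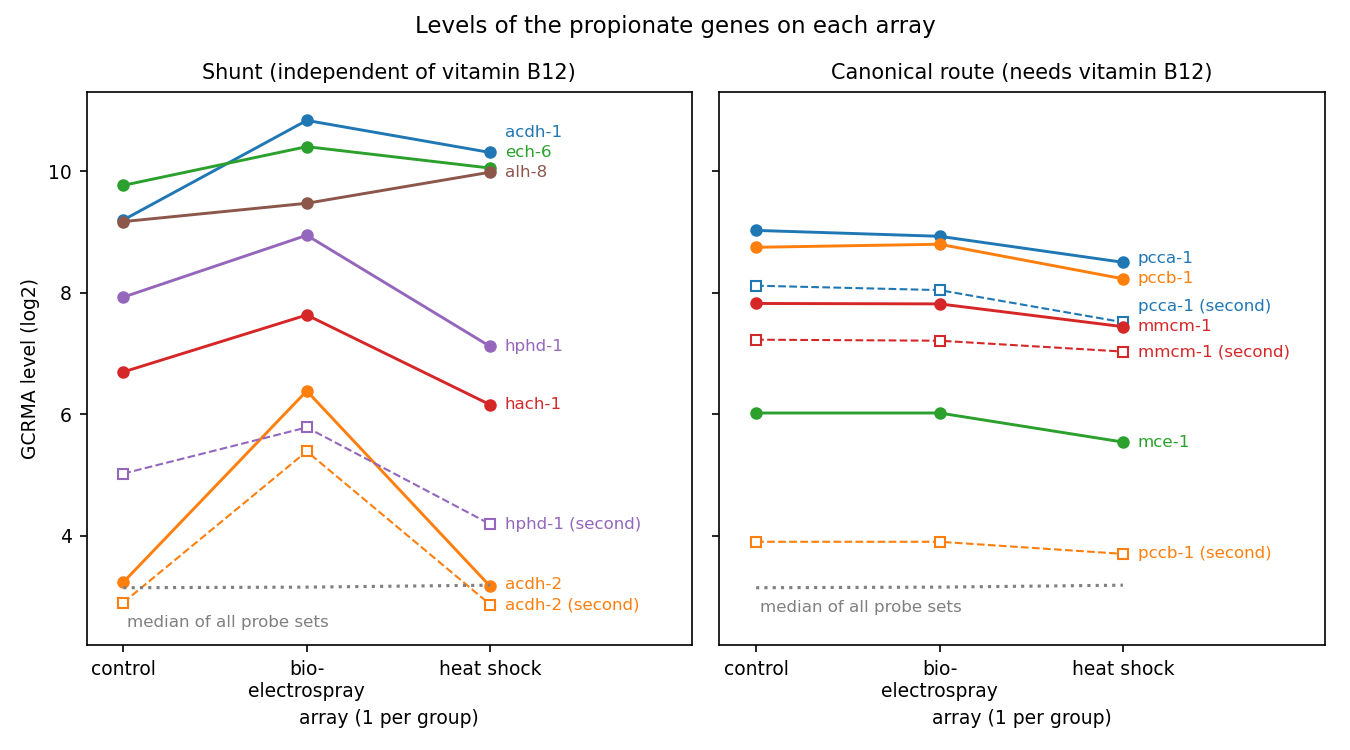
GCRMA level (log2, vertical axis) of each propionate gene by array (horizontal axis: control, bio-electrospray, heat shock, with 1 array per group), with the shunt on the left and the canonical route on the right. Filled circles and solid lines are the brightest probe set of a gene, open squares and dashed lines a second one, and the dotted line is the median of all probe sets. On the left 7 of 8 probe sets peak after bio-electrospray, and on the right all 7 are lowest on the heat shock array, before any centring on the spike-in probe sets.

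In the canonical route propionyl-CoA carboxylase is built from the subunits encoded by pcca-1, which carries the biotin, and pccb-1. The level of pcca-1 was 9.02 in control larvae, 8.93 in sprayed larvae and 8.50 in heat-shocked larvae, and its second probe set read 8.11, 8.04 and 7.51. The level of pccb-1 was 8.75 in control larvae, 8.80 in sprayed larvae and 8.23 in heat-shocked larvae, and a dim second probe set read 3.90, 3.90 and 3.70. Both subunits thus stayed within 0.10 of control after spraying and were about 1.4-fold below it after heat (1.44-fold for pcca-1, 1.43-fold for pccb-1). The epimerase gene mce-1 read 6.02 in control larvae, exactly the same in sprayed larvae, and 5.54 in heat-shocked larvae. Exactly equal values on the control and bio-electrospray arrays were common, at 27.9% of all probe sets and 20.7% of those above 6 on the control array, so mce-1 was 1 of many such genes. The mutase gene mmcm-1, whose product uses vitamin B12, read 7.82 in control and sprayed larvae alike and 7.44 in heat-shocked larvae. Its second probe set read 7.23, 7.21 and 7.03.

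**Figure D2:**
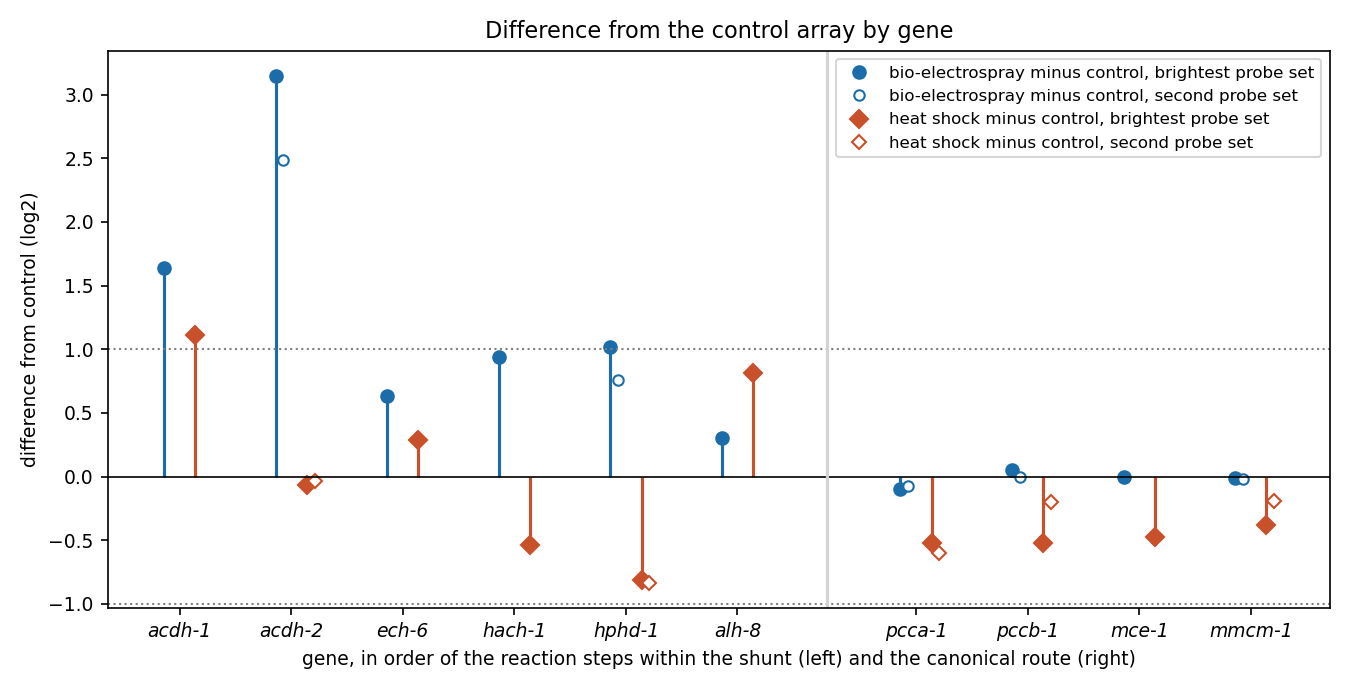
Difference from the control array (log2, vertical axis) for each gene (horizontal axis, by reaction step within each route). Circles are bio-electrospray minus control and diamonds heat shock minus control, filled for the brightest probe set and open for a second one, and dotted lines mark 2-fold. After spraying the shunt genes lie between 0.30 and 3.15 and the canonical genes between −0.10 and 0.05.

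After heat shock the shunt genes lay on both sides of control on the deposited scale. Of the 6, acdh-1 (1.11), alh-8 (0.81) and ech-6 (0.28) were above control, and hphd-1 (−0.81) and hach-1 (−0.54) were below it. The remaining one, acdh-2, was at −0.07. Centred on the spike-in probe sets, hphd-1 was at −0.28 and hach-1 at −0.01, while acdh-1 (1.64), ech-6 (0.82) and acdh-2 (0.46) were above control. On the deposited scale only acdh-1 was at least 2-fold apart, and with the spike-in centring alh-8 (1.35) was so too. Over all 9010 genes compared, 8.9% were higher and 8.24% lower by 2-fold or more, 17.1% together (802 and 742 genes, or 1902 higher and 377 lower when centred on the spike-in probe sets), and the middle 95% of differences ran from −1.97 to 1.81, so that every member lay inside that range. The median over the shunt was 0.11, beside 0 over all genes. All 4 canonical genes were below control on the deposited scale, from −0.52 to −0.38 with a median of −0.498, but centred on the spike-in probe sets they lay between 0.01 and 0.15 above it. A difference below 0 was found for 41.9% of all genes and one above 0 for 43.5%. None of the canonical genes was 2-fold apart.

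**Figure D3:**
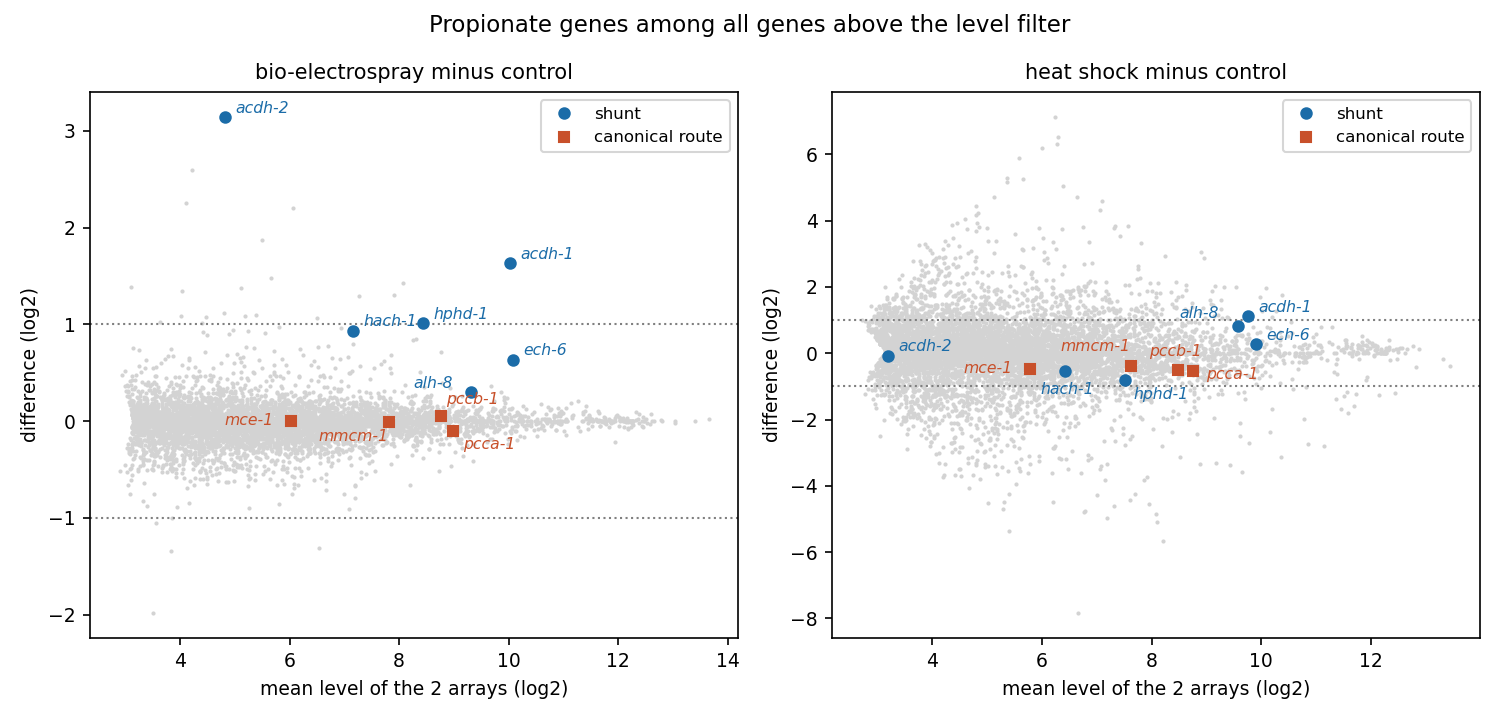
Difference from control (log2, vertical axis) against the mean level of the 2 arrays compared (log2, horizontal axis) for all genes above the level filter (grey points), for bio-electrospray (left, 8613 genes) and heat shock (right, 9010 genes), on different vertical scales. Circles are shunt genes, squares canonical genes and dotted lines 2-fold. After spraying acdh-2 lies above every other gene, and after heat all members lie within the bulk of genes.

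Set directly against each other, the heat shock array minus the bio-electrospray array gave −3.21 for acdh-2, −1.83 for hphd-1 and −1.48 for hach-1, and these 3 of 6 shunt genes were the ones at least 2-fold lower. Of them acdh-2 passed the level filter only through the bio-electrospray array, its difference was −1.99 with 16 added to the linear levels, and with the filter required on both arrays 2 of 5 shunt genes were counted as 2-fold lower. Over all 9024 genes compared, 7.73% were lower and 8.8% higher by 2-fold or more, 16.5% together (698 and 794 genes, or 438 lower and 1518 higher when centred on the spike-in probe sets). The other shunt genes differed by −0.53 (acdh-1), −0.35 (ech-6) and 0.51 (alh-8), and the canonical genes by −0.57 to −0.37. This comparison shares its arrays with the 2 before it and adds no independent reading. By order of the arrays on the deposited scale, 5 of 6 shunt genes were highest after spraying, as were 18.5% of 9080 genes, and 4 of 4 canonical genes were lowest after heat, as were 38.9%. With each treated array centred on its spike-in difference from control, the 4 canonical genes were lowest in control larvae instead. All 4 were then highest after spraying, as were 5 of 6 shunt genes, so this order did not set the routes apart. This centring raises both treated arrays against control for every gene. The share of all genes with such an order was not counted, so nothing about the members is read from the centred counts. Of the shunt genes, ech-6 was then nearly level, at 0.824 after spraying and 0.817 after heat. Centred on the spike-in difference between the 2 treated arrays themselves, ech-6 turned from −0.35 to 0.01.

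The intestine and the hypodermis are known sites of acdh-1 transcription, and in whole larvae a change in the number of cells of a type and in RNA per cell cannot be told apart. The summed level of the 8 intestine markers was 1.01 times the control level after spraying and 1.12 times after heat. That of the 6 hypodermis markers was 0.976 and 0.386 times the control level. The hypodermis sum after heat was carried largely by the bright dpy-13 (−1.21) and dpy-5 (−2.37). Of the other hypodermis markers, rol-6 (−1.74) and dpy-7 (−0.91) were lower, wrt-2 nearly level (−0.03) and elt-3 higher (0.55). The median level of these 6 was 7.68 against 8.27 in control larvae. The intestine sum after heat was carried largely by asp-1 (0.30 above control), whereas ges-1 (−1.38) and pept-1 (−1.26) were lower and the median level of the 8 markers was 7.58 against 8.27 in control larvae. After heat the summed marker levels were also 1.84 times control for neurons, 0.931 times for muscle and 0.591 times for the germline (0.941, 0.998 and 0.944 times after spraying). The part of these marker levels in the results was not tested.

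Genes around the pathway were set beside its members, starting with regulators. The nuclear hormone receptors encoded by nhr-10 and nhr-68 are known to switch on shunt genes when propionate persists. The level of nhr-10 was 5.67 in control larvae, 5.69 in sprayed larvae and 5.60 in heat-shocked larvae, so it hardly differed. That of nhr-68 was 6.51 in control larvae, 6.97 in sprayed larvae and 7.45 in heat-shocked larvae, a difference of 0.46 after spraying and 0.94 after heat. It was thus above control after both treatments. The receptor gene nhr-114, which acts in the vitamin B12 response of the methionine cycle, differed by 0.27 and 1.09, the lipid regulator sbp-1 by 0.51 after spraying, and mdt-15, a Mediator subunit gene, by −0.40 after spraying. After heat nhr-49 and nhr-66 differed by 0.78 and 0.47. Of the 9 regulators none was 2-fold apart after spraying (median 0.02), beside 0.302% of all genes. After heat 1 was, nhr-114, beside 17.1% of all genes, and the median was 0.41. Centring on the spike-in probe sets would add 0.53 and take nhr-68, nhr-49 and nhr-66 past 2-fold as well. Over all 9010 genes, 1902 were higher and 377 lower under that centring.

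A list for vitamin B12 handling and the methionine cycle gave 15 genes above the filter. It also held genes that do not use the vitamin, such as cth-1, cbs-1 and mthf-1. None of them was 2-fold apart after spraying (median 0.11), beside 0.302% of all genes. The largest differences then were those of cth-1 (−0.76) and cbs-1 (−0.59), both of transsulphuration, and of pmp-5 (0.62), a peroxisomal-type ABC transporter gene linked to vitamin B12, while mmaa-1, whose human counterpart assists the mutase, was at 0.28. After heat the median was 0, with 3 genes higher and 1 lower by 2-fold or more, beside 8.9% and 8.24% of all genes. The higher ones were mmaa-1 (1.70), the methylenetetrahydrofolate reductase gene mthf-1 (1.35) and metr-1 (1.23), which encodes methionine synthase, the other enzyme that uses the vitamin. The lower one was cth-1, at 7.37 in control larvae and 3.82 in heat-shocked larvae, a difference of −3.55. Centring on the spike-in probe sets would take mrp-5 (0.59) and cth-2 (0.55) past 2-fold too. The vitamin-dependent enzyme genes thus differed from control in opposite directions after heat on the deposited scale, metr-1 upward and mmcm-1 downward (−0.38, or 0.15 centred on the spike-in probe sets).

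The breakdown of the branched-chain amino acids valine and isoleucine supplies propionyl-CoA. A list for branched-chain breakdown as a whole, leucine included, gave 15 genes above the filter. None was 2-fold apart after spraying (median 0.09), beside 0.302% of all genes. Highest were C05C10.3 (0.84), whose part in this breakdown was not checked, the thiolase gene kat-1 (0.35) and dbt-1 (0.25), a subunit gene of the branched-chain ketoacid dehydrogenase. Another of its subunit genes, bckd-1A (−0.22), was lowest. After heat 13 of 15 were below control on the deposited scale, beside 41.9% of all genes (median −0.34, which centring on the spike-in probe sets turns to above 0). On that scale ivd-1, the isovaleryl-CoA dehydrogenase gene of leucine breakdown, was more than 2-fold lower (−1.39), with bckd-1A at −0.84, mccc-1 at −0.66 and dbt-1 at −0.48. Centring on the spike-in probe sets would add 0.53 to each and take ivd-1 short of 2-fold. Biotin carboxylases share their cofactor with propionyl-CoA carboxylase. Of 4 genes for these or for biotin handling (bpl-1), none was 2-fold apart after spraying (pod-2 at 0.27, pyc-1 at 0.16, mccc-1 at 0.06, bpl-1 at 0). After heat pod-2, the acetyl-CoA carboxylase gene, was higher (1.26), and the spike-in centring would take bpl-1 (0.47) just to 2-fold.

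Relatives of the shunt enzymes in the same families were not 2-fold apart after spraying, beside 0.302% of all genes. With so low a share, a short list with none says little about these families. Of 7 other acyl-CoA dehydrogenase genes above the filter the differences ran from −0.44 (acdh-6) to 0.19 (acdh-9). Those of acdh-1 and acdh-2, which were chosen with these values known, were 1.64 and 3.15. In the enoyl-CoA hydratase family 7 genes ran from −0.83 (ech-1.1) to 0.06 (ech-7), and 11 other aldehyde dehydrogenase genes from −0.25 (alh-13) to 0.14 (alh-3). At 2.92 after spraying ech-1.1 was below the array median, so its difference depends on the background model. The next lowest was ech-2 (−0.08). After heat these families varied more, beside 17.1% of all genes 2-fold apart. Of 8 enoyl-CoA hydratase genes, ech-9 was higher (2.04, from a control level of 2.60 below the array median, so that its size depends on the background model). In the same family ech-7 (−1.35) and ech-1.2 (−1.02) were lower. Of 11 aldehyde dehydrogenase genes, alh-3 (1.35) was higher and alh-13 (−1.89) lower. Centring on the spike-in probe sets would take ech-7 and ech-1.2 short of 2-fold and alh-10 (0.52) past it. None of 7 other acyl-CoA dehydrogenase genes was 2-fold apart (acdh-7 at −0.88, acdh-6 at −0.76).

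**Figure D4:**
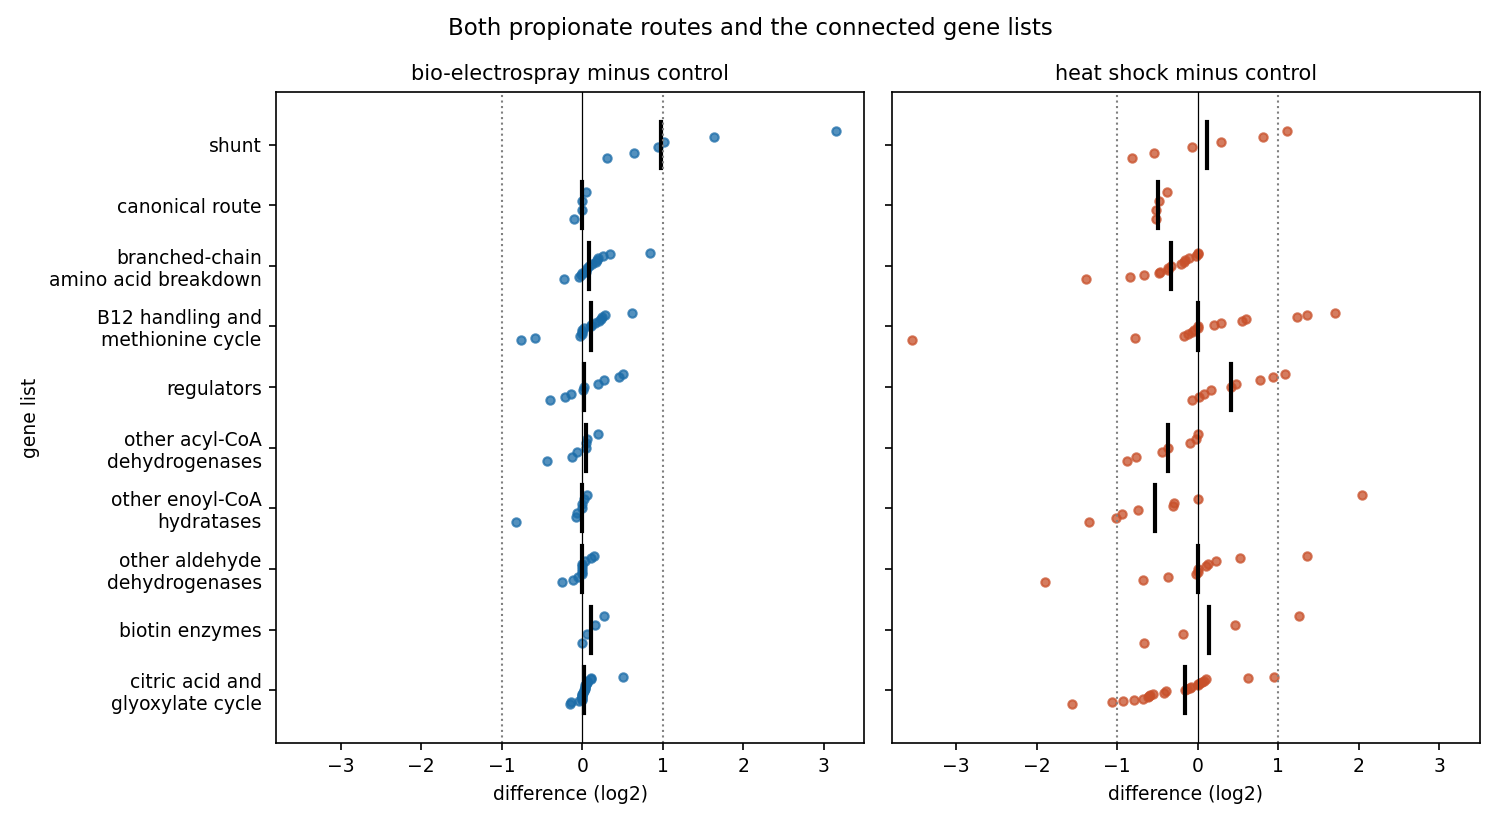
Difference from control (log2, horizontal axis) of each gene above the level filter (points) in both propionate routes and 8 connected gene lists without the members (vertical axis), after bio-electrospray (left) and heat shock (right). Black bars are list medians and dotted lines 2-fold. After spraying the shunt median is 0.98 and the medians of the 8 other lists lie between 0 and 0.11.

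Likeness was measured as the distance between pairs of differences from control (after spraying, after heat) over the 3 arrays, among 9079 other genes, with no p-value. Nearest to acdh-1 were the sugar transporter gene swt-6 (distance 0.27, from a control level of 2.42, below the array median, where a difference depends on the background model), the claudin-like gene clc-19 (0.35), the UDP-glucuronosyltransferase gene ugt-26 (0.47), C49G7.10 (0.53) and T13F3.6 (0.61). Nearest to hphd-1 were the lysozyme gene lys-4 (0.28), its pathway neighbour hach-1 (0.28), srh-237 (0.38), K11H12.4 (0.42) and cld-9 (0.46). For acdh-2 the distances rest on a difference from a level at the array median (3.15, or 1.97 with the offset of 16), and the nearest genes were ugt-26 at 1.49, K11H12.4 at 1.90, acdh-1 at 1.91, F14F9.4 at 2.02 and the P-glycoprotein gene pgp-5 at 2.06. With 3 arrays such a pair of differences is a coarse description.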

How the data were processed

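The authors made the deposited levels, read here as log2 levels, with GCRMA, per the submitters' processing notes. The log2 scale was inferred from that method's output and the range of values, and the version of GCRMA is not given in the sources used here. Per the labels' protocols, 200 ng of total RNA per sample was amplified and labelled with biotin. Scanner files were not used here, and 0 columns belonged to no sample. Gene names came from the platform's annotation, updated by gene ID from the RefSeq gene table (20766 probe sets with 1 symbol, 20701 of them matched). Log2 levels were subtracted, and at least 2-fold (a log2 difference of 1) was counted. The brightest probe set over the 3 arrays stood for a gene. With 1 array per group no test was run. The members and the 8 connected lists (108 entries, 7 not found on the array) were chosen with earlier results of these data known. Named genes were all members, up to 4 per list and treatment with the largest absolute difference, and the 5 genes most like acdh-1, acdh-2 and hphd-1. Beyond this rule nhr-10 is named for its role, and mrp-5 and cth-2 for passing 2-fold after heat with the spike-in centring. All 6 hypodermis markers are given. The intestine markers named and the genome neighbours were chosen after their values were seen. Alternatives covered 4 scalings (quantile, median, loess with span 0.3, spike-in), the level filter, 16 added to linear levels, probe sets of unshared name, fold thresholds of 1.5 and 3, and the mean over probe sets. Counting was tested on simulated data. Python 3.11.15, numpy 2.4.6, pandas 2.3.3, statsmodels 0.14.6 and matplotlib 3.10.9 were used.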

Additional observations from a re-analysis of the deposited data

How the results depend on the processing

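Of the 108 counts recomputed under 12 alternative settings, 94 stayed within 1.5 times the reported count. The canonical route counts were 0 under every setting, and leaving out the level filter changed no count, which raises that number. No member's 2-fold difference changed sign. Counts of shunt genes moved by over 1.5 times under 3 settings, given first, and by less under others. At a threshold of 1.5-fold, 5 shunt genes were apart after bio-electrospray and 3 after heat shock. At 3-fold, 0 were apart after heat shock. Centred on the spike-in probe sets, 2 were apart after heat shock (acdh-1 and alh-8). With 16 added to the linear levels, hphd-1 fell short of 2-fold after bio-electrospray (0.97), and hach-1 reached it when centred on the spike-in probe sets (1.12). Of the 3 shunt genes apart after bio-electrospray, 2 were counted with the offset of 16, with unshared probe sets, with the mean over probe sets and at 3-fold, and 4 when centred on the spike-in probe sets. For heat shock against bio-electrospray 2 in place of 3 were counted with the filter on both arrays, with unshared probe sets and at 3-fold. Counts over all genes after bio-electrospray were 17 with the filter at the 75th percentile, 11 with the offset of 16, 120 at 1.5-fold and 7 at 3-fold, against 26. After heat shock they were 802 with the offset, 2945 at 1.5-fold and 684 at 3-fold, against 1544. For heat shock against bio-electrospray they were 750, 2915 and 634, against 1492. No paired analysis was possible because each group is 1 array. The number of arrays and, for acdh-2, a control level at the array median limit these values. Without probe sets of shared name, ech-6, hphd-1 and alh-8 could not be measured.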

Other observations

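Genes next to the members in the genome were looked at after the members' values had been seen. Of 20 protein-coding neighbours in the RefSeq gene table of assembly WBcel235, 16 were measured and 14 passed the level filter. After bio-electrospray none of the 14 was 2-fold apart, beside 0.302% of all genes. Their differences ran from −0.35 (pat-3, beside mmcm-1) to 0.22 (tir-1, on its other side). After heat shock 4 of the 14 were 2-fold apart, beside 17.1% of all genes: nmad-1 (2.73) and rpc-2 (−1.27) on either side of hach-1, F13D12.5 (−1.65) beside alh-8, and tir-1 (1.44).

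The citric acid and glyoxylate cycles receive the products of both routes. Of 23 genes of these cycles or linked to them, as pck-1 and pck-2 are, none was 2-fold apart after bio-electrospray (median 0.02). Over all genes 0.302% were. The glyoxylate cycle gene icl-1 had the largest difference (0.51), followed by pck-1 (−0.15), idha-1 (−0.14) and fum-1 (0.10). After heat shock 2 of 23 were 2-fold lower, near the 8.24% of all genes: sucl-2 (−1.56), a succinyl-CoA ligase subunit gene, and idhb-1 (−1.07). Of the others, aco-2 was at −0.93, pck-2 at 0.94 and icl-1 at 0.62. Centring on the spike-in probe sets would add 0.53, taking idhb-1 short of 2-fold and pck-2 and icl-1 past it.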
